A study of Mus musculus with 20 samples.

Results

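The effect of the Gly-Low diet on gene expression in the mouse hypothalamus was compared between a young and an old arm, as a difference of 2 differences: old Gly-Low minus old control, less acute Gly-Low minus acute control. The 16 libraries of these 4 groups, out of 20 in the series, were taken by their labels, and the 4 young control libraries were left out because they belong to neither diet contrast. All animals were male C57BL/6J mice, and RNA with poly-A tails was sequenced from the hypothalamus. The acute groups were 4 months old and ate control food (5 libraries) or food with compounds added to lower glycation, called Gly-Low (4 libraries), for 1 week. The old groups were 25 months old and ate control food (4 libraries) or Gly-Low (3 libraries) for 5 months. Age, length of feeding and anything else that differed between the arms cannot be told apart. Total counts ran from 17955746 to 27399753 per library, and all 20 markers of hypothalamic neurons and nuclei that were listed for the tissue had enough counts to be tested.

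The hypothalamus sets food intake and energy use, partly through arcuate neurons that release the hunger peptides AgRP and NPY or the satiety peptides made from Pomc. In glycation, reactive by-products of sugar breakdown, among them methylglyoxal, bind to proteins without an enzyme, and the glyoxalases Glo1 and Hagh clear methylglyoxal with glutathione. The lower surface of the hypothalamus is covered by meninges, whose fibroblasts make collagen and small leucine-rich proteoglycans, and it lies beside the pituitary, so a dissected piece can carry RNA of both. In such bulk tissue, fewer cells of a type and less RNA per cell cannot be told apart.

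The libraries differed in make-up, and these values stand beside every result that follows. The share of counts on mitochondrial transcripts was 6.98% ± 1.46 (SD, n = 5) in acute control and 20.9% ± 2.73 (SD, n = 4) in acute Gly-Low, groups that did not overlap (p = 0.0159, two-sided exact permutation test, the smallest possible, and 0.0397 after adjustment over 10 tests). The old arm had 9.03% ± 4.61 (SD, n = 4) in control and 6.14% ± 1.21 (SD, n = 3) in Gly-Low (p = 0.343, exact permutation test, smallest possible 0.0571). A length slope was fitted to each library, regressing how far every gene lay from its own average over the libraries (log2) on transcript length (log2), so that a negative value means relatively more counts on short transcripts. It was 0.16 ± 0.04 in acute control and −0.35 ± 0.09 in acute Gly-Low, again without overlap, against 0.02 ± 0.17 in old control and 0.17 ± 0.11 in old Gly-Low. Old control 3 stood apart from the other old libraries, with a mitochondrial share of 15.8% and a slope of −0.22, near acute Gly-Low 3 (17.0% and −0.26). The part of library make-up in the diet effects was not tested, and values without these libraries or with transcript length in the fit are given where they change a result. In acute controls the summed level of 13 pituitary transcripts ran from 57.6 to 64490 CPM (counts scaled to the size of the library), and acute controls 2, 3 and 5 were also left out together.

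Few genes moved alike in the 2 arms, and the genes that moved unlike were many. A log2 effect is the log2 fold change of Gly-Low over control within an arm, given with its standard error, and a difference is the old effect minus the acute effect. Of 18664 genes tested, 7621 (40.8%) passed for the difference at an adjusted p of 0.05, 3869 (20.7%) with a higher and 3752 (20.1%) with a lower effect in the old arm. In the acute arm 9495 genes passed (50.9%), of which 4619 (24.7%) rose and 4876 (26.1%) fell. Among the old groups 0 genes passed by edgeR, where 1161 had an unadjusted p under 0.05 (441 higher, 2.36%, and 720 lower, 3.86%). DESeq2 called 9 higher and 1 lower there, limma-voom with quality weights also 9 and 1, and edgeR with 1 surrogate variable 3 higher. The median size of the log2 effect was 0.75 in the acute arm and 0.26 in the old arm. As no gene passed in both arms, genes that moved alike were described by whether the libraries of the 2 diets overlapped within each arm. With 3 libraries against 4 in the old arm, full separation in either direction has a probability of 0.0571 without any diet effect. The measure therefore describes genes and does not test them.

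By that measure 61 genes (0.327%) were higher and 31 (0.166%) lower in Gly-Low in both arms, while 273 (1.46%) were higher in acute and lower in old Gly-Low and 212 (1.14%) were lower in acute and higher in old Gly-Low. Lack of overlap in the same direction does not mean equal effects: the difference between the arms passed for 3 of the 61 and 11 of the 31 (40.8% of all genes), and 44 of the 61 but 8 of the 31 had an unadjusted old p under 0.05. Of the 600 genes (3.21%) whose old Gly-Low libraries all lay above the old controls, 10.2% were also higher in acute Gly-Low, where 21.1% of all genes were, and 35.3% were lower there, where 22.7% of all genes were. Of the 611 genes (3.27%) at the other end of the old arm, 5.07% were lower and 44.7% higher in acute Gly-Low. In both sets a larger share lay apart in the opposite direction in the acute arm than in the same one. With a transcript-length offset per library the 4 counts became 77 and 34 alike and 112 and 132 opposite, with 39, 15, 68 and 56 genes in common with the counts above. Leaving out 1 library makes it easier for groups not to overlap, and the counts then ran from 62 to 125, from 33 to 119, from 275 to 878 and from 214 to 502 in the same order as first given.

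**Figure D1:**
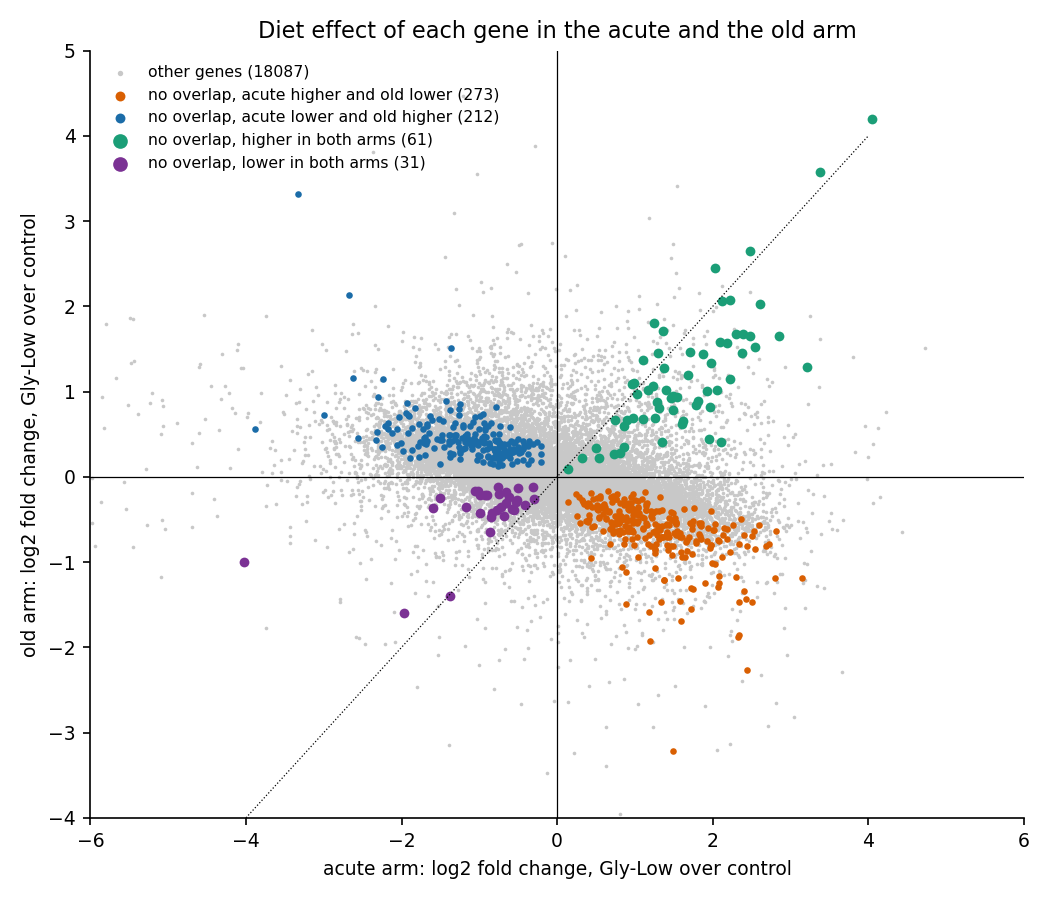
Each point is 1 of the 18664 genes tested, with its log2 effect of Gly-Low in the acute arm on the x axis and in the old arm on the y axis, and 23 genes beyond the axes are not drawn. Colours mark the genes whose diets did not overlap in either arm, 61 and 31 alike and 273 and 212 opposite, and the dotted line marks equal effects. The cloud runs from upper left to lower right, while the 61 genes higher in both arms lie along the dotted line at the upper right.

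Across the 18664 genes, which are not independent replicates, the acute and old effects had Pearson's r of −0.36 and Spearman's rho of −0.48. The arms share no library, but all libraries share 1 normalization and the dependence on transcript length. The value of r was −0.21 with the length offset, −0.14 without old control 3, −0.08 without old Gly-Low 1 and 0.12 with limma-voom and quality weights. The size of this relation thus depended on single old libraries, and its sign on the fit. With both an effect of at least 0.5 in each arm and a called difference, 859 genes (4.6%) were higher in acute and lower in old Gly-Low and 745 (3.99%) the reverse. Without old control 3 these counts were 246 and 239. Without old control 4 they were 1407 and 1782, and the second was 1315 without old control 1, 429 without old control 2, 224, 1523 and 1182 without old Gly-Low 1, 2 or 3, and 2062 with the replicate block.

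Of the genes that were higher with Gly-Low in both arms, the rule named 6: Thbd, Gm14569, Bmp4, Fgfbp1, Igfbp6 and Ccn3. Lack of overlap in both arms was a condition of that rule, here and for the genes lower in both arms. From these it took the genes with the smallest value of the larger of the 2 arms' p. Their p-values in each arm are thus those of a selected set. All 6 rose in the acute arm, with log2 effects from 1.30 to 2.61. Their old effects ran from 1.33 to 2.46 and did not pass by edgeR (adjusted p from 0.126 to 0.768). The effect of 2.46 was that of Gm14569, whose levels were low. Its means were 0.43 CPM in acute control, 1.75 CPM in acute Gly-Low, 0.25 CPM in old control and 1.39 CPM in old Gly-Low. None of the 6 differences passed, and their 95% intervals all held 0. With the length offset the acute effects were 1.59 to 2.78 and the old effects 1.30 to 2.26, while with the length slope as a covariate the acute effects of Gm14569, Fgfbp1, Igfbp6 and Ccn3 did not pass (adjusted p from 0.0547 to 0.579).

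Thbd (ENSMUSG00000074743, chr2:148404466-148408188), thrombomodulin, is a surface receptor that binds thrombin and limits clotting. Its levels were 17.2, 13.7, 15.2, 9.47 and 19.2 CPM in the acute controls and 39.9, 35.9, 30.4 and 41.3 CPM in acute Gly-Low. In the other arm they were 8.94, 7.52, 6.21 and 12.3 CPM in the controls and 28.6, 22.9 and 20.1 CPM in Gly-Low. Every Gly-Low library lay above every control of its arm. The log2 effects were 1.30 ± 0.22 (adjusted p = 0.000109) and 1.45 ± 0.25 (unadjusted p = 2.01e-05 by edgeR, adjusted p = 0.126), and the difference was 0.15 with a 95% interval from −0.55 to 0.84. The old effect passed with DESeq2 (adjusted p = 0.000247), with limma-voom (0.0431), with 1 surrogate variable (0.0177) and without old control 4 (0.0382).

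Bmp4 (ENSMUSG00000021835, chr14:46383520-46390669) encodes a bone morphogenetic protein, a secreted signal of the TGF-beta family. Its levels were 4.13, 1.95, 3.29, 1.72 and 2.42 CPM in the acute controls and 13, 10.4, 7.92 and 14.8 CPM in acute Gly-Low. The old controls held 2.02, 1.08, 1.26 and 1.60 CPM and old Gly-Low 4.67, 4.62 and 4.18 CPM. The groups of each arm were far apart, and old Gly-Low did not reach the level of acute Gly-Low. The effects were 2.10 ± 0.28 (adjusted p = 1.39e-05) and 1.58 ± 0.32 (adjusted p = 0.39, and 0.00929 with DESeq2), and the difference was −0.51 (95% interval −1.41 to 0.39), or −0.98 with limma-voom and quality weights (adjusted p = 0.0425). A gene model of another locus, Gm15217, overlaps Bmp4, and the libraries do not tell the strands apart.

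Igfbp6 (ENSMUSG00000023046, chr15:102144362-102149511) encodes a binding protein that prefers insulin-like growth factor 2. It had 9.66, 4.84, 9.34, 4.04 and 12.5 CPM in the acute controls, 59.6, 39.3, 28.4 and 40.4 CPM in acute Gly-Low, 3.02, 4.00, 5.11 and 4.46 CPM in the old controls and 12.3, 12.6 and 9.24 CPM in old Gly-Low. It was higher with Gly-Low in both arms, and acute Gly-Low held more of it than old Gly-Low, while the control groups of the 2 arms overlapped. The effects were 2.38 ± 0.30 and 1.45 ± 0.34 and the difference −0.93 (95% interval −1.89 to 0.03, adjusted p = 0.111), which passed with the replicate block (−1.14, adjusted p = 0.0431) and was 0.09 with the length offset. Fgfbp1, which releases fibroblast growth factors from the matrix, ranged from 0.713 to 5.00 CPM in acute control, 12.8 to 15.1 CPM in acute Gly-Low, 0.745 to 1.99 CPM in old control and 4.35 to 6.26 CPM in old Gly-Low. Ccn3, a matricellular protein, had effects of 1.99 ± 0.28 and 1.33 ± 0.32, and its difference of −0.65 passed without acute control 1 (−0.95, adjusted p = 0.0397) and with limma-voom (−0.99, adjusted p = 0.0258).

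**Figure D2:**
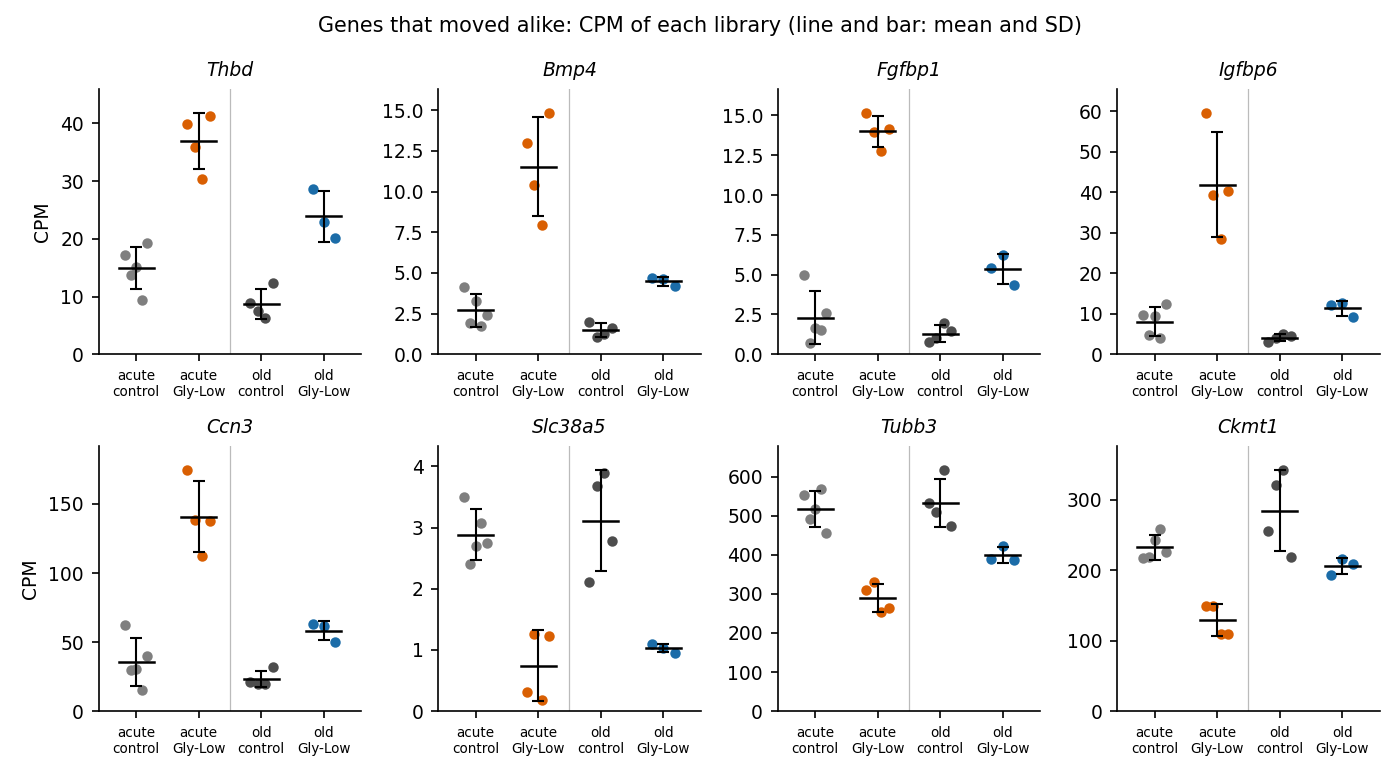
Levels in CPM (linear axes from 0) of 8 genes without overlap between the diets in both arms, with 1 point per library and the mean and SD of each group as a line and a bar. Thbd, Bmp4, Fgfbp1, Igfbp6 and Ccn3 are higher and Slc38a5, Tubb3 and Ckmt1 lower with Gly-Low in both arms.

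The 6 genes named as lower in both arms were Slc38a5, St6galnac2, Tubb3, Ckmt1, Bckdk and Slc40a1. All 6 fell in the acute arm (log2 effects from −1.97 to −0.58) and had old effects from −1.60 to −0.38 that did not pass (adjusted p = 0.768 for each). Slc38a5 (chrX:8271133-8280179), a glutamine transporter, had 3.51, 2.40, 2.69, 3.07 and 2.75 CPM in the acute controls and 0.306, 1.26, 0.178 and 1.23 CPM in acute Gly-Low. It had 2.10, 3.68, 3.90 and 2.79 CPM in the old controls and 1.09, 1.03 and 0.955 CPM in old Gly-Low. These levels are low, and the groups of each arm did not overlap. The effects were −1.97 ± 0.44 and −1.60 ± 0.48 and the difference was 0.37 (95% interval −0.95 to 1.69).

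Tubb3, the neuronal beta-tubulin, ranged from 456 to 567 CPM in acute control and from 254 to 330 CPM in acute Gly-Low. The old groups ranged from 473 to 617 CPM in control and from 386 to 422 CPM in Gly-Low, so that neither arm had overlapping diets. Its effects were −0.84 ± 0.12 and −0.42 ± 0.14, and the difference of 0.42 (95% interval 0.03 to 0.80, adjusted p = 0.0784) passed with the length offset (1.04, adjusted p = 0.000492), with 1 surrogate variable (0.0231), with limma-voom (0.0219) and without old control 3 (0.0354). Ckmt1, a mitochondrial creatine kinase, had effects of −0.84 and −0.47 and a difference of 0.85 with the length offset (adjusted p = 0.00401). For these 2 genes the direction was shared, while the size differed under some settings. Tubb3 is overlapped by Gm20388, Ckmt1 by Strc and St6galnac2 by another gene entry of the same symbol. Bckdk, the kinase that shuts off branched-chain amino acid breakdown, had −0.58 and −0.38. Slc40a1, the iron exporter ferroportin, had −0.86 and −0.65, and St6galnac2, a sialyltransferase, −1.37 and −1.39. Their acute calls ended with the length offset (adjusted p = 0.165 and 0.0869), and that of St6galnac2 also without acute controls 2, 3 and 5 (0.135). With the length slope as a covariate the acute effects of Slc38a5 (−2.52, adjusted p = 0.090) and St6galnac2 (−1.71, adjusted p = 0.224) did not pass. The levels of St6galnac2 were low too. Its means were 0.51 CPM in acute and 0.59 CPM in old Gly-Low, against 1.31 and 1.56 CPM in their controls.

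The stretch of 250 bases before the RefSeq start of the gene (build GRCm38.p6) is shown for 3 of these genes, Bmp4 and Igfbp6 from those higher and Slc38a5 from those lower in both arms, to let the start regions of genes that moved together be compared. They lie at chr14:46390670-46390919 (minus strand), chr15:102143936-102144185 (plus strand) and chrX:8271131-8271380 (plus strand), written 5′ to 3′ along the gene, with motif matches in capitals.

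Bmp4: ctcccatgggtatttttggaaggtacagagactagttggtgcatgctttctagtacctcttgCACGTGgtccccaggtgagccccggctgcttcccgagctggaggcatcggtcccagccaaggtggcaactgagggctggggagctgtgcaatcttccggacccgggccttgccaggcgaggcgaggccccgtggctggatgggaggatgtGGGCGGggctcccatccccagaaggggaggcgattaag
Igfbp6: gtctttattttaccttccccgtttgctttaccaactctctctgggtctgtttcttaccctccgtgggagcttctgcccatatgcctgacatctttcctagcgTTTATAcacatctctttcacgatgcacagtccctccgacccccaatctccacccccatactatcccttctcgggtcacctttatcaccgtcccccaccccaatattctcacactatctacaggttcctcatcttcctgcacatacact
Slc38a5: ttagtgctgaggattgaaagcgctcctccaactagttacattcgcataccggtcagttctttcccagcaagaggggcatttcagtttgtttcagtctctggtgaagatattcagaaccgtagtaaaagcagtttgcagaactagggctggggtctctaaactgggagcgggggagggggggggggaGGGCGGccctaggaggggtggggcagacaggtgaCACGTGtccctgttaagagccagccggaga

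Of the 12 genes named as alike, 8 had an entry in the RefSeq promoter table, and each was searched on both strands for TATAAA (the TATA box), GGGCGG (the GC box), CACGTG (an E box) and GGAATG (the motif of TEAD factors). The TATA box was found in 3 of the 8, the GC box in 3, the E box in 2 and the TEAD motif in 2. Over all 32851 windows of the table of the same length, the shares were 12.4%, 32.7%, 6.02% and 12.6%. All 3 matches to TATAAA lay on the strand opposite to the gene, where they read TTTATA. They began at base −148 in Igfbp6, −31 in Ckmt1 and −169 in Bckdk. Bmp4, which was higher with Gly-Low, and Slc38a5, which was lower, both held a GC box and an E box. Counted from the RefSeq start, the GC box began at base −38 and −64 and the E box at base −188 and −30. By the GENCODE positions given above, though, the Slc38a5 stretch lies almost wholly inside the gene (start 8271133). The Igfbp6 stretch ends short of its GENCODE start (102144362). No motif of the 4 was shared by all of the genes that were higher, and the matches describe only these letters.

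Markers of meningeal fibroblasts moved in the same direction as the genes that were higher in both arms. Of the 13 listed, 8 rose and 1 (Pdgfra) fell in the acute arm, where 24.7% and 26.1% of all genes did, and 12 had an old effect above 0, as 51.8% of all genes had. An unadjusted old p under 0.05 was found for 10 of these, against 2.36% of all genes. The list's median effect was 1.06 in the acute arm and 1.29 in the old arm, against −0.09 and 0.02 over all genes, and the median difference was −0.12. Its summed level ran from 201 to 367 CPM in acute control, from 291 to 487 CPM in acute Gly-Low, from 157 to 204 CPM in old control and from 218 to 271 CPM in old Gly-Low. The diets overlapped in the acute arm and not in the old arm. Without acute controls 2, 3 and 5, 5 rose in the acute arm. A fit with the length slope as a covariate left 1 that rose and 5 with an unadjusted old p under 0.05, with medians of 1.75 and 1.09. The part of meningeal tissue in the alike genes was not tested.

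Differences passed for 3 of the 13, while 40.8% of all genes passed. Crabp2, which carries retinoic acid in the meninges, rose by 3.21 ± 0.38 in the acute arm and had 1.29 in the old arm (difference −1.91, adjusted p = 0.0134). Dcn, the proteoglycan decorin, rose by 1.06 with 0.06 in the old arm (difference −0.996, adjusted p = 0.0499). Pdgfra, which also marks oligodendrocyte precursors, fell by 1.39 with −0.16 in the old arm (difference 1.23, adjusted p = 0.00308). None of these 3 passed with the length offset, and 0 of the 13 with the length slope as a covariate. Ogn (osteoglycin), chosen after its values were seen, had 1.75 ± 0.39 and 1.63 ± 0.45, with 12.7 to 77.9 CPM in acute control, 71.2 to 132 CPM in acute Gly-Low, 8.28 to 17.7 CPM in old control and 30.6 to 39.97 CPM in old Gly-Low.

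Some of the genes named as alike also passed in the old arm by another tool. The 9 that DESeq2 called higher there were Thbd, Gm48678, Gm14569, Bmp4, Fgfbp1, Bgn, Phldb2, Slc13a4 and Pde5a (Gm48678 is annotated as antisense, and its reads cannot be told from those of the other strand). By that tool 8 of them also passed as higher in the acute arm, while Bgn did not (adjusted p = 0.0977). Bgn (ENSMUSG00000031375, chrX:73483602-73495933), the proteoglycan biglycan, was chosen after its values were seen. It had 14.5, 16.9, 14.9, 9.47 and 17.0 CPM in the acute controls, 23.5, 16.7, 15.7 and 18.1 CPM in acute Gly-Low, 7.19, 5.89, 5.88 and 9.21 CPM in the old controls and 21.3, 15.6 and 18.8 CPM in old Gly-Low. The acute groups overlapped, whereas the old groups were apart. Its old effect of 1.40 ± 0.23 exceeded its acute effect of 0.35 ± 0.20, a difference of 1.05 ± 0.31 (adjusted p = 0.012 by edgeR). The 1 gene that DESeq2 called lower, the long non-coding RNA D930028M14Rik, went the other way in the acute arm, with effects of 1.18 and −1.59.

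Border macrophage genes, which mark the immune cells of the meninges and vessel surfaces, were higher in the acute arm for 11 of 14 listed (24.7% of all genes). An old effect above 0 was found for 11 (51.8% of all genes). The medians were 1.34 and 0.41 (−0.09 and 0.02 over all genes), and 4 differences passed, all lower (20.1% of all genes). The 3 with the smallest p were Ccr2 (1.37 and −0.37, adjusted p = 0.0209), the hyaluronan receptor Lyve1 (2.63 and 0.33, adjusted p = 0.0211) and the chemokine Pf4 (2.346 and 0.40, adjusted p = 0.0299). Without old control 3, 2 of the 14 differences passed, and with the replicate block or the length slope as a covariate 0 did. The acute count of 11 was 5 with the length offset and 1 with the length slope as a covariate. The levels were low, with a summed level over the list from 21.2 to 67.8 CPM in acute control, 67.6 to 145 CPM in acute Gly-Low, 40.4 to 65.8 CPM in old control and 70.9 to 76.5 CPM in old Gly-Low. Erythrocyte markers moved with this list in the acute arm: 5 of the 7 tested rose (24.7% of all genes). Only 1 rose with the length offset and 0 with the length slope as a covariate. The summed level of these markers was 73.6 to 322 CPM in acute control and 545 to 1514 CPM in acute Gly-Low, without overlap. In the old arm it was 870 to 1758 CPM in control and 992 to 3080 CPM in Gly-Low, which overlapped. Ccr2 and Pf4 are also expressed by blood cells, and the part of blood in these genes was not tested.

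The genes whose diet effect was most clearly higher in the old arm had fallen in the acute arm and had small effects in the old arm. The 3869 genes called in this direction had a median acute effect of −1.23 and a median old effect of 0.26. For 3440 the 2 effects had opposite signs, which choosing genes by the difference of these effects itself favours. Over all genes the 2 effects had a Spearman's rho of −0.48. The median transcript length of the 3869 genes was 3959 bases, against 2469 over all genes. Among those with the smallest p were Kdm5b, Arhgap36, Adgrf5, Abhd2 and Slc7a14, and with opposite effects of at least 0.5 Fam120c, Phf8, Ets2, Sv2c, Epg5 and Slc7a1.

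Kdm5b (ENSMUSG00000042207, chr1:134560171-134635285), a histone H3 lysine 4 demethylase, had 78.5, 76.8, 71.4, 80.1 and 74.0 CPM in the acute controls and 16.7, 21.6, 19.1 and 20.1 CPM in acute Gly-Low. The old levels were 52.8, 51.0, 39.0 and 54.0 CPM in control and 65.3, 57.7 and 59.3 CPM in Gly-Low. All Gly-Low libraries lay below their controls in the acute arm and above them in the old arm. The acute effect was −1.98 ± 0.13 (adjusted p = 5.13e-08), the old effect 0.31 ± 0.13 (adjusted p = 0.768) and their difference 2.28 ± 0.18 (adjusted p = 3.35e-06), or 1.09 with the length offset (adjusted p = 0.000857).

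Arhgap36 (chrX:49463945-49500244), an activator of Hedgehog signalling, fell from between 159 and 192 CPM to between 26.2 and 41.1 CPM in the acute arm. The old levels ranged from 124 to 180 CPM in control and from 177 to 187 CPM in Gly-Low, groups that overlapped. Its difference of 2.57 ± 0.21 stayed at 2.31 with the length offset (adjusted p = 2.78e-05). Adgrf5, an adhesion receptor of endothelium, fell from between 37.6 and 48.5 CPM to between 5.08 and 7.68 CPM in the acute arm and had an old effect of −0.03 ± 0.16, a difference of 2.67 ± 0.22.

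Among the genes with opposite effects, Ets2 (chr16:95702075-95721051), a transcription factor of the ETS family, had 64.6, 89.2, 99.8, 87.6 and 84.9 CPM in the acute controls and 23.7, 27.8, 20.5 and 18.7 CPM in acute Gly-Low. It had 90.2, 72.2, 60.3 and 79.2 CPM in the old controls and 121, 100 and 103 CPM in old Gly-Low. The groups did not overlap in either arm and lay in opposite order. The effects were −1.91 ± 0.16 and 0.52 ± 0.17 and the difference 2.43 ± 0.23 (adjusted p = 5.78e-06), or 1.81 with the length offset. Phf8, a histone demethylase, had −2.18 and 0.56 with 24.3 to 41.2 CPM in acute control, 6.92 to 8.95 CPM in acute Gly-Low, 21.2 to 30.5 CPM in old control and 32.2 to 43.6 CPM in old Gly-Low. Fam120c (−1.65 and 0.51), the synaptic vesicle protein Sv2c (−2.32 and 0.54), the autophagy factor Epg5 (−2.31 and 0.53) and the arginine transporter Slc7a1 (−2.20 and 0.56) had differences from 2.16 to 2.86, and those of Epg5 and Slc7a1 did not pass with the length slope as a covariate (adjusted p = 0.0636 and 0.0682).

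The genes whose diet effect was most clearly lower in the old arm had risen in the acute arm. The 3752 genes called in this direction had a median acute effect of 1.17, a median old effect of −0.31 and a median transcript length of 1316 bases. For 3494 the signs were opposite, which this choice by the difference again favours. The 8 with the smallest p were Itpa, Uqcrh, Mrpl42, Ndufb3, Chchd1, Ndufa2, Zmat2 and Pex2. Uqcrh belongs to respiratory complex III, Ndufb3 and Ndufa2 to complex I, and Mrpl42 and Chchd1 to the mitochondrial ribosome.

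Uqcrh (ENSMUSG00000063882, chr4:116066965-116075071) had 101, 110, 108, 110 and 86.3 CPM in the acute controls and 774, 551, 396 and 498 CPM in acute Gly-Low. It had 133, 159, 262 and 134 CPM in the old controls and 99.0, 133 and 124 CPM in old Gly-Low. The highest old value was that of control 3. The effects were 2.43 ± 0.21 (adjusted p = 5.36e-07) and −0.53 ± 0.24, and the difference of −2.96 ± 0.33 (adjusted p = 1.83e-05) was −1.31 with the length offset (adjusted p = 0.000162) and −1.02 with the length slope as a covariate (adjusted p = 0.0796).

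Mrpl42 (chr10:95480805-95501940) had 32.0, 32.4, 35.8, 35.8 and 27.5 CPM in the acute controls and 155, 147, 103 and 147 CPM in acute Gly-Low. Its old controls held 37.3, 49.2, 77.6 and 36.1 CPM and old Gly-Low 24.3, 33.5 and 32.3 CPM. The groups of both arms were apart, in opposite order. The difference was −2.81 ± 0.32 (adjusted p = 2.04e-05), and −1.22 with the length offset. Itpa, which clears damaged nucleotides, had effects of 1.76 and −0.27 and a difference of −2.03. Mrpl41 (1.89 and −0.55) and 1810037I17Rik (2.14 and −0.55) completed the 6 named for opposite effects in this direction. None of the 8 genes with the smallest p, nor these 2, passed for the difference with the length slope as a covariate (adjusted p from 0.066 for Itpa to 0.154 for Chchd1). In that fit the acute effects of Mrpl42 (0.71, adjusted p = 0.0644), Mrpl41 (0.71, adjusted p = 0.0578) and Chchd1 (0.94, adjusted p = 0.0513) did not pass either.

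**Figure D3:**
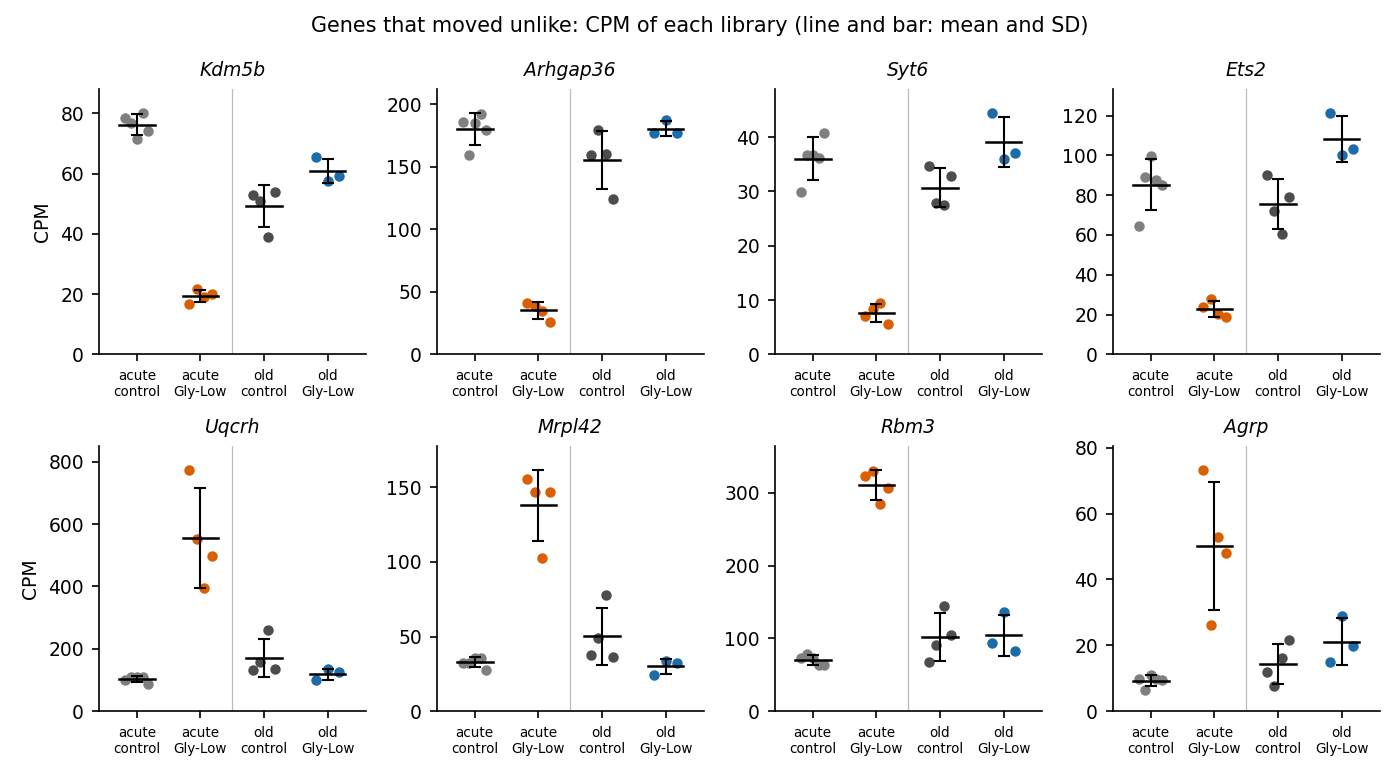
Levels in CPM (linear axes from 0) of 8 genes with a called difference between the arms, with 1 point per library and the mean and SD of each group as a line and a bar. Kdm5b, Arhgap36, Syt6 and Ets2 have their lowest group mean in acute Gly-Low, and Uqcrh, Mrpl42, Rbm3 and Agrp have their highest group mean there.

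Gene lists showed the same contrast on a larger scale. The lists were chosen with earlier results of these data known, so their direction is not independent support. Over all genes, 24.7% rose and 26.1% fell in the acute arm, and 51.8% had an old effect above 0. For the difference, 20.1% of all genes passed as lower and 20.7% as higher. Of 74 nuclear genes of the respiratory chain, 65 rose in the acute arm, 0 had an old effect above 0, and 68 differences passed, all lower (background 20.1%), with medians of 1.66, −0.57 and −2.28. All 13 protein genes of the mitochondrial genome rose in the acute arm and all 13 differences were lower (medians 2.03, −0.86 and −2.84). Of 80 cytosolic ribosomal proteins, 78 rose and 78 differences were lower (medians 2.15, −0.48 and −2.54), although reads of these genes may be shared with processed copies. Of 34 proteasome subunits, 26 rose and 3 fell, and 25 differences were lower and 1 higher. Without old control 3 the old medians were −0.23 for the respiratory chain, −0.14 for the mitochondrial genome and −0.14 for the ribosomal proteins, smaller than with it. With the length offset 49 respiratory chain, 11 mitochondrial genome, 69 ribosomal and 17 proteasome differences were lower, and 2 proteasome ones were higher. With the length slope as a covariate 0 differences passed in these 4 lists. In that fit 4, 0, 3 and 2 of their genes, in the same order, rose in the acute arm. The slope and the acute diet move together there.

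Clustered protocadherins, adhesion proteins that give neurons their cell identity, were lower in the acute arm for 28 of 29 (26.1% of all genes). For the difference 24 passed as higher (background 20.7%), with medians of −2.12, 0.64 and 2.66. The 3 with the smallest p were Pcdhgc4 (−2.84 and 0.64, difference 3.48), Pcdhga7 (−2.33 and 0.69, difference 3.02) and Pcdhga6 (−1.72 and 0.66, difference 2.38), and members share exons, so their counts may be split between them. Of 32 voltage-gated channels 24 fell in the acute arm (26.1% of all genes), and 23 differences were higher (20.7% of all genes). Their medians were −1.16, 0.38 and 1.51. Of 32 receptors for GABA and glutamate 17 fell and 1 rose (26.1% and 24.7% of all genes). For the difference 17 were higher and 1 lower (20.7% and 20.1% of all genes). With the length offset 8 higher and 1 lower passed. Of 21 immediate early genes, which follow neuronal activity, 14 fell (26.1% of all genes). For the difference 7 were higher (20.7% of all genes), led by Nptx2 (−2.20 and 0.60, adjusted p = 7.6e-05), Egr4 and Fosb. Without acute controls 2, 3 and 5 3 immediate early genes fell and 1 difference passed, and without old control 3, 4 differences passed. With the length offset 19 protocadherin, 12 channel and 5 immediate early differences were higher, and 1 channel difference was lower. With the length slope as a covariate 0 differences passed among protocadherins, channels, these receptors or immediate early genes.

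**Figure D4:**
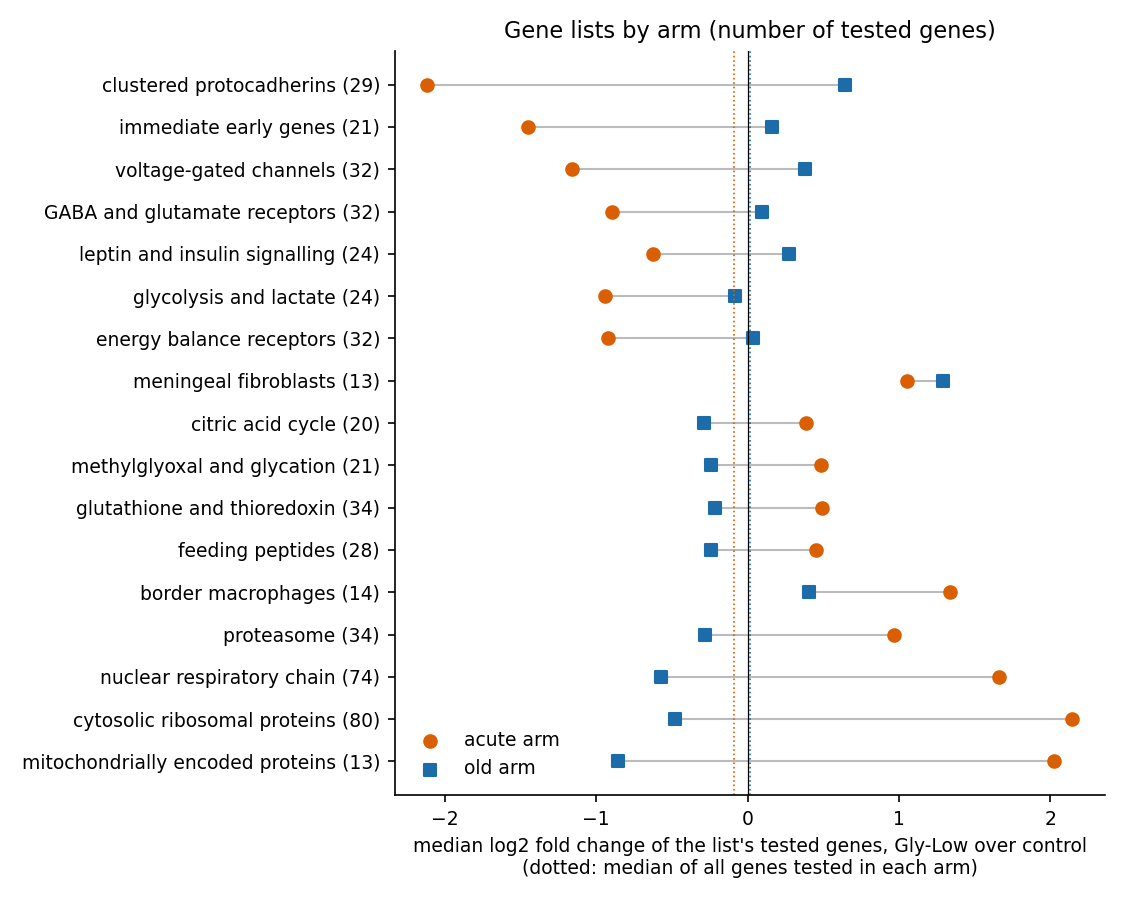
Median log2 effect of Gly-Low over the tested genes of 17 lists (number of genes in brackets), in the acute arm (circles) and the old arm (squares), with dotted lines at the medians of all genes tested (−0.09 and 0.02). Meningeal fibroblasts have medians of 1.06 and 1.29, whereas the mitochondrial, ribosomal and protocadherin lists have medians of opposite sign in the 2 arms.

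Of 24 genes of glycolysis and lactate, 14 fell and 2 rose in the acute arm (26.1% and 24.7% of all genes), and 12 differences were higher and 4 lower (20.7% and 20.1% of all genes), led by Pfkp (−1.42 and −0.05), Eno2 (−1.33 and −0.06) and Hk2 (−1.35 and 0.27), all 3 higher. Without acute controls 2, 3 and 5 0 lower differences passed. The differences were 11 higher and 2 lower with the length offset and 1 and 0 with the length slope as a covariate. Of 20 genes of the citric acid cycle, 10 rose and 5 fell, and 11 differences were lower and 3 higher. With the length offset 7 rose and 4 fell, and 7 differences were lower and 3 higher. Without acute controls 2, 3 and 5, 5 rose and 2 fell, and 7 differences were lower and 2 higher. In the fit with the length slope as a covariate 0 rose, 3 fell and 0 differences passed. Those with the smallest p were Sdhd, a membrane anchor of complex II (1.44 and −0.30), Ogdh, a subunit of the oxoglutarate dehydrogenase (−1.50 and 0.24), and Sdhc (0.94 and −0.34). Ogdh thus differed in the other direction than the succinate dehydrogenase subunits.

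The direction of the difference followed transcript length. In 5 bins of about 3731 genes by length, the median acute effect went from 1.00 in the shortest bin (up to 1271 bases) to −0.82 in the longest (from 4139.5 bases), and the median old effect from −0.29 to 0.26. In the shortest bin 48.1% of differences were called lower and 2.44% higher, and in the longest 3.24% and 47.9%. The 273 genes higher in acute and lower in old Gly-Low had a median length of 1036 bases, the 212 of the reverse class 4663 bases, and the 61 and 31 alike genes 2264 and 2084 bases. With the length offset 2275 higher and 2746 lower differences passed, 1756 and 1970 of them in common with those above. With the length slope as a covariate 140 higher and 109 lower ones passed, of which 128 and 10 were in common.

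**Figure D5:**
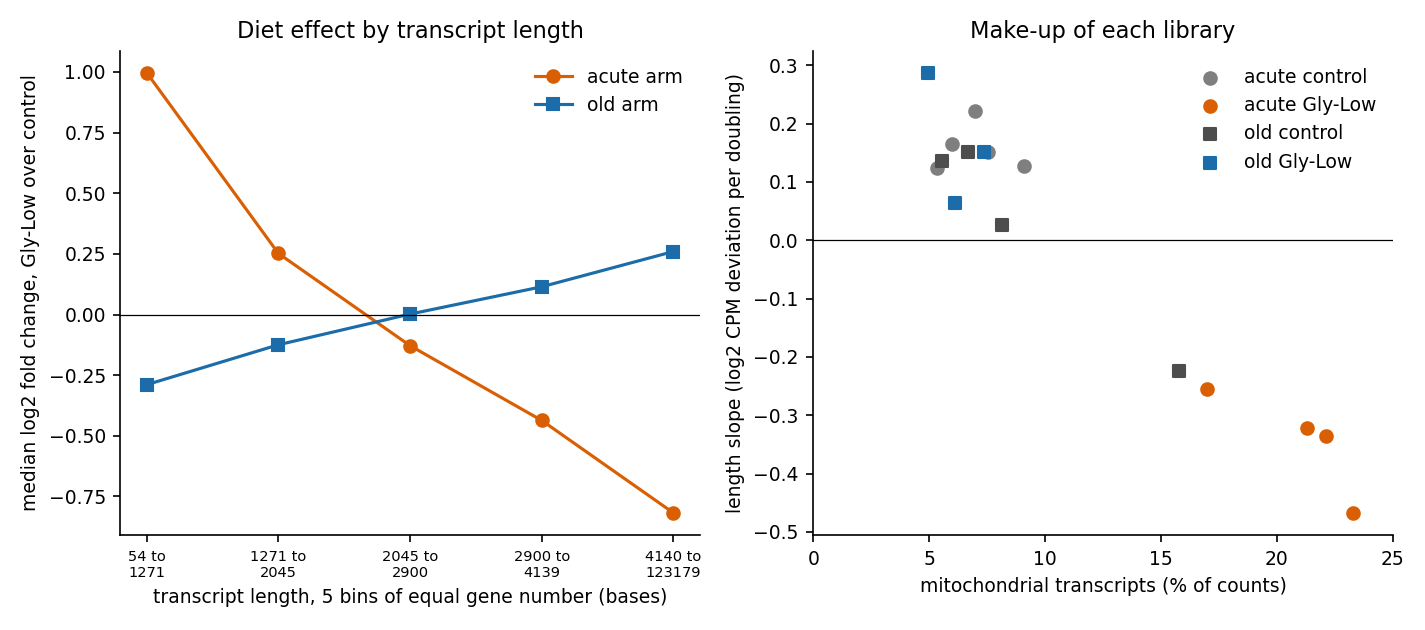
Left, the median log2 effect of Gly-Low in 5 bins of transcript length (bases), falling from 1.00 to −0.82 in the acute arm and rising from −0.29 to 0.26 in the old arm. Right, the share of mitochondrial transcripts (% of counts) against the length slope of each of the 16 libraries, where the acute Gly-Low libraries and old control 3 lie apart from the others at high share and negative slope.

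For 8 genes named by their p under the length offset, differences of 0.70 to 2.60 and −1.78 to −0.99 became 1.92 to 2.82 and −2.38 to −1.47. Syt6 (chr3:103575231-103645569), a synaptotagmin, had 29.9, 36.7, 36.6, 36.2 and 40.8 CPM in the acute controls and 6.99, 8.34, 9.44 and 5.57 CPM in acute Gly-Low. It had 34.6, 27.8, 27.4 and 32.9 CPM in the old controls and 44.4, 36.01 and 37.0 CPM in old Gly-Low. Its diets did not overlap in either arm and lay in opposite order. The difference was 2.60 ± 0.24 (adjusted p = 4.84e-06) and 2.82 with the offset (adjusted p = 2.78e-05). Tmem130 had 2.40 and 2.16, Ly6e, a small surface protein, 1.07 and 2.15, and Cdipt, which makes phosphatidylinositol, 0.70 and 1.92, though that of Cdipt was lost without acute controls 2, 3 and 5 (0.63, adjusted p = 0.0828).

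In the other direction the rule named Prkrip1, Ska2, Bcl2l2 and Cbr4, whose transcripts of 3037 to 4309 bases were longer than the median. Ska2, a protein of the spindle and kinetochore, had 13.2 to 16.9 CPM in acute control, 43.4 to 52.8 CPM in acute Gly-Low, 18.9 to 23.7 CPM in old control and 15.3 to 21.5 CPM in old Gly-Low. It rose in the acute arm, and its old groups overlapped. Its difference was −1.78 ± 0.21, and −2.21 with the offset (adjusted p = 7.12e-05). Bcl2l2, an inhibitor of cell death, had −0.99 and −1.47, Cbr4, a mitochondrial carbonyl reductase, −1.62 and −2.38, and Prkrip1, a splicing factor, −1.28 and −1.92. Of these 8 genes, the differences of Ly6e, Prkrip1, Ska2 and Cbr4 did not pass with the length slope as a covariate (adjusted p from 0.0823 to 0.169).

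Among feeding genes the orexigenic peptide Agrp differed between the arms while its partner Npy did not pass. Agrp (ENSMUSG00000005705) had 9.66, 6.27, 11.0, 9.72 and 9.54 CPM in the acute controls and 73.3, 26.2, 53.0 and 48.1 CPM in acute Gly-Low. It had 11.8, 7.68, 16.2 and 21.7 CPM in the old controls and 14.9, 28.7 and 19.7 CPM in old Gly-Low. It was higher in every acute Gly-Low library, and the old groups overlapped. The difference was −1.89 ± 0.47 (adjusted p = 0.00421), but −0.43 (adjusted p = 0.507) with the length offset, under which the effects were 1.23 and 0.79, and −1.21 (adjusted p = 0.502) with the length slope as a covariate. The locus is overlapped by 7 other gene models, among them Ctcf and Ripor1. Npy had effects of 0.55 ± 0.42 and 0.68 ± 0.47, a difference of 0.14 (95% interval −1.19 to 1.47), and 1.78 with the offset (adjusted p = 0.0278).

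Ghsr (ENSMUSG00000051136, chr3:27371351-27378010), the receptor of the hunger hormone ghrelin, had 8.84, 10.1, 10.3, 11.3 and 11.0 CPM in the acute controls and 4.29, 3.79, 9.57 and 3.31 CPM in acute Gly-Low. It had 12.01, 10.1, 10.3 and 8.54 CPM in the old controls and 14.7, 16.4 and 16.2 CPM in old Gly-Low. The old groups were apart, with Gly-Low higher, and acute Gly-Low 3 lay among the acute controls. The effects were −0.97 ± 0.26 and 0.62 ± 0.28 and the difference 1.59 ± 0.38 (adjusted p = 0.0033), which did not pass with the offset (0.79, adjusted p = 0.13) or with the length slope as a covariate (1.12, adjusted p = 0.443). Insr, the insulin receptor, had −1.48 and 0.41 with a difference of 1.89 (adjusted p = 0.000221), or 0.46 with the offset (adjusted p = 0.0943) and 0.50 with the length slope as a covariate (adjusted p = 0.627). Lepr, the leptin receptor, had −0.33 and 0.61 and did not pass (adjusted p = 0.0824), though it did with 1 surrogate variable (1.40, adjusted p = 0.00195), with limma-voom (0.95, adjusted p = 0.0127) and without old control 3 (1.22, adjusted p = 0.0222). Mc4r, a melanocortin receptor, had −0.75 and −0.40.

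Pomc fell in the acute arm by 4.41 with an old effect of −0.26, and its difference was 4.15 ± 1.22 (adjusted p = 0.0126). Its acute controls held from 35.9 to 3151 CPM, the highest in acute control 2, and overlapped acute Gly-Low (27.3 to 71.3 CPM). Without acute controls 2, 3 and 5 the difference was 1.63 (adjusted p = 0.162). A covariate for the length slope gave 4.37 (adjusted p = 0.392). Of the 13 pituitary transcripts, 11 also fell in the acute arm (26.1% of all genes), with median effects of −4.18 and 0.14. Without acute controls 2, 3 and 5 the acute median of that list was −0.28. The part of pituitary RNA in the Pomc values was not tested. Pmch, which encodes melanin-concentrating hormone, rose from between 95.7 and 295 CPM to between 490 and 725 CPM in the acute arm, and had 159 to 512 CPM in old control and 244 to 272 CPM in old Gly-Low. Its difference was −1.84 ± 0.52 (adjusted p = 0.00954), −0.33 with the offset (adjusted p = 0.589) and 0.20 with the length slope as a covariate. Cartpt (0.11 and −0.68) and Hcrt (−0.29 and −1.03) did not pass for the difference, though that of Cartpt did without old control 4 (−1.05, adjusted p = 0.0339).

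Of 28 feeding peptides tested, 10 rose and 3 fell in the acute arm (24.7% and 26.1% of all genes), and 8 differences were lower and 2 higher (20.1% and 20.7% of all genes), with medians of 0.45, −0.24 and −0.79. These counts turned over with the length offset, under which 3 rose and 9 fell, and 2 differences were lower and 5 higher. Without acute controls 2, 3 and 5, 6 rose, and with the length slope as a covariate 0 rose, 3 fell and 0 differences passed. The 3 with the smallest p were Nts, neurotensin (1.39 and −1.06), Tac1, the precursor of substance P (0.97 and −0.39), and Pdyn, prodynorphin (−0.87 and 0.31). Of their 32 receptors, 22 fell and 2 rose, and 13 differences were higher and 1 lower, with the melanocortin receptor Mc3r at −1.63 and 0.32 and the CGRP co-receptor Ramp1, the lower one, at 1.78 and −0.59. In the list of leptin and insulin signalling (24 genes), 11 members fell and 1 rose, and 9 differences were higher, led by Grb10 (−1.64 and 0.12), Stat3 (−1.91 and 0.41) and Gsk3b (−1.34 and 0.30). With the length offset 14 receptors fell and 2 rose, and 9 differences were higher and 1 lower. In the leptin and insulin list 5 fell, 4 rose and 5 differences were higher and 1 lower with that offset. Of the receptors 2 differences and of leptin and insulin signalling 1 passed with the length slope as a covariate, all higher.

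The genes that clear methylglyoxal passed for the difference, but not with transcript length in the fit. Glo1 (ENSMUSG00000024026, chr17:30584936-30626871) had 194, 129, 131, 145 and 128 CPM in the acute controls and 257, 260, 259 and 285 CPM in acute Gly-Low. It had 156, 190, 236 and 128 CPM in the old controls and 117, 168 and 158 CPM in old Gly-Low. Acute Gly-Low was higher in every library, and the old groups overlapped. The effects were 0.87 ± 0.17 and −0.27 ± 0.20 and the difference −1.13 ± 0.26 (adjusted p = 0.00289), against −0.08 with the offset (adjusted p = 0.835) and −0.93 without acute controls 2, 3 and 5 (adjusted p = 0.0535). The locus is overlapped by Dnah8. Hagh, which completes the glyoxalase step, had 0.49 and −0.47 and a difference of −0.96 (adjusted p = 0.00477), or 0.02 with the offset.

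Of 21 genes for methylglyoxal and glycation, 10 rose and 3 fell in the acute arm (24.7% and 26.1% of all genes). For the difference 9 were lower (20.1% of all genes), led by Park7 (1.00 and −0.39), Glod4 (1.18 and −0.27) and Esd (1.31 and −0.27). With the offset 2 rose, 3 fell and 2 differences were lower, without acute controls 2, 3 and 5, 6 rose and 6 differences were lower, and with the length slope as a covariate 0 rose and 1 difference passed, a higher one. Of 34 genes of glutathione, thioredoxin and NRF2, 18 differences were lower and 1 higher (20.1% and 20.7% of all genes). With the offset 12 were lower and 2 higher, and with the length slope as a covariate 0 passed. The list was led by the glutathione transferases Gstm5 (2.04 and −0.31) and Mgst1 (2.43 and −0.18) and by Gpx4 (1.83 and −0.57), which reduces lipid peroxides. Rbm3, a cold-induced RNA-binding protein, had 62.8 to 78.7 CPM in acute control, 284 to 330 CPM in acute Gly-Low, 67.2 to 145 CPM in old control and 82.7 to 136 CPM in old Gly-Low. It rose in the acute arm and had an old effect of 0.03 ± 0.21, with a difference of −2.12 ± 0.29 (adjusted p = 5.22e-05) and −1.21 with the offset (adjusted p = 0.00117), but −0.84 with the length slope as a covariate (adjusted p = 0.279). Gfap, the astrocyte filament, had 0.44 and 0.25 and a difference of −0.19 (95% interval −1.44 to 1.06).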

How the data were processed

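The table that the authors deposited holds a whole-number read count for each gene and library, not normalized. GRCm38 is the build in the submitters' processing notes, which also list the tools featureCounts 1.5.0-p3, HISAT2 2.0.5 and DESeq2 1.20.0. The strand setting of the counting is not given in the sources used here, and the libraries were non-directional (per the labels' protocols), so reads of overlapping genes cannot be told apart. Of 54532 genes, 54495 matched the GENCODE annotation of GRCm38, while 37 did not, with at most 0.0198% of a library's counts. Nothing in the labels says that libraries are separate animals, and p-values measure the spread between these samples.

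Genes were filtered with filterByExpr, scaled with TMM and tested with edgeR 4.0.16 (R 4.3.3) by its quasi-likelihood F test in 1 fit of the 4 groups, with Benjamini-Hochberg adjustment over 18664 genes and a threshold of 0.05. CPM use the TMM library sizes. Overlap used log2 CPM (prior count 2). Alternatives were DESeq2 1.42.0, limma-voom (limma 3.58.1) with quality weights, other scalings and filters, all 20 libraries, each arm alone, 1 surrogate variable (sva 3.50.0), a replicate block, leaving out each library, and 2 with transcript length: per-library offsets fitted in 40 length bins, and the length slope as a covariate. The main fit was also run on simulated counts with 200 genes changed in old Gly-Low alone. The simulated libraries had no length slope and no acute diet effect, so that run says nothing about these features of the data.

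The values do not show that the title numbers pair the libraries. Deviations from the group means correlated for same-numbered libraries of the old arm (0.265 to 0.432 over 3 pairs), but not of the acute arm (−0.04 to 0.0011). However, 0 of 7 Gly-Low libraries correlated best with the control of its own number. Those of the old arm correlated best with other controls (0.293 to 0.591). The replicate block is an alternative only. For old Gly-Low the numbers in the table's header differ from those of the titles.

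The arms, the 45 gene lists and the rules were chosen with earlier results of these data known. Named genes are protein-coding: the 8 with the smallest p of the difference in each direction, of which some are given by value only, the 6 most alike and the 6 most opposite in each direction, the 4 with the smallest p under the length offset in each direction, 14 listed genes of feeding, glycation and other processes, and up to 3 members of each list described. Promoter sequences are from RefSeq, build GRCm38.p6.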

Additional observations from a re-analysis of the deposited data

Results flagged for a closer look

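Of 189 groups checked for a library apart, 14 held a library far from the others of its group, all of them for named genes. By chance alone about 1 in 20 such groups would. The lowest libraries of their groups were acute Gly-Low 3 for Mrpl42 (102.6 CPM), acute control 1 for Phf8 (24.3 CPM) and Insr (33.8 CPM), acute Gly-Low 1 for Slc7a1 (11.1 CPM) and old control 3 for Bcl2l2 (55.4 CPM). The highest were old control 3 for Ndufa2 (110.3 CPM), old control 4 for Ccn3 (31.8 CPM), acute Gly-Low 1 for Prkrip1 (47.0 CPM), acute Gly-Low 4 for Bcl2l2 (150.5 CPM) and Glo1 (285 CPM), acute control 1 for Glo1 (194 CPM), acute Gly-Low 3 for Ghsr (9.57 CPM), and acute control 2 and acute Gly-Low 2 for Pomc (3151 and 71.3 CPM).

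The difference between the arms passed the edgeR test for 40 of 58 named genes. It was higher in the old arm on the log2 scale for Kdm5b (2.28), Arhgap36 (2.57), Adgrf5 (2.67), Abhd2 (2.11), Slc7a14 (2.66), Fam120c (2.16), Phf8 (2.73), Ets2 (2.43), Sv2c (2.86), Epg5 (2.85), Slc7a1 (2.76), Syt6 (2.60), Ly6e (1.07), Cdipt (0.70), Tmem130 (2.40), Pomc (4.15), Ghsr (1.59) and Insr (1.89), and for 3 further genes among the 8 with the smallest p (2.00, 2.40 and 2.03). It was lower for Itpa (−2.03), Uqcrh (−2.96), Mrpl42 (−2.81), Ndufb3 (−2.61), Chchd1 (−3.17), Ndufa2 (−3.25), Zmat2 (−1.85), Pex2 (−2.02), 1810037I17Rik (−2.68), Mrpl41 (−2.44), Prkrip1 (−1.28), Ska2 (−1.78), Bcl2l2 (−0.99), Cbr4 (−1.62), Agrp (−1.89), Pmch (−1.84), Glo1 (−1.13), Hagh (−0.96) and Rbm3 (−2.12).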

How the results depend on the processing

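With the length offset 2275 genes were higher for the difference, and 275 and 378 had opposite effects of at least 0.5 (acute higher and acute lower), with 112 and 132 in the opposite classes without overlap. With the length slope as a covariate the difference held 140 higher and 109 lower genes, the acute arm 626 and 797, and the opposite classes 20 and 3, and in this fit the slope and the acute diet move together. Without acute controls 2, 3 and 5 the difference had 2274 higher genes, the acute arm 2956 higher and 2933 lower, the second opposite class 313, and 101 and 48 genes were alike without overlap. In the old arm DESeq2 called 9 higher and 1 lower, limma-voom 9 and 1, and 1 surrogate variable 3 higher, so that 8, 8 and 3 genes were alike and, by DESeq2, 1 opposite. The opposite classes were 404 and 228 with limma-voom and 450 and 239 with 1 surrogate variable. The replicate block gave 2062 in the second and moved no other count of calls over all genes by more than 1.5 times. Leaving out each library gave 2899 to 4384 higher and 3056 to 4095 lower differences, 4164 to 4820 and 4244 to 5192 acute calls, 0 to 2 and 0 to 1 old calls, 0 to 1 alike and 0 to 1 opposite calls, 246 to 1407 and 224 to 1782 opposite genes by size, and without overlap 62 to 125 and 33 to 119 alike and 275 to 878 and 214 to 502 opposite genes. The cause of these changes was not tested.

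Of the differences of named genes over all alternatives, 38 changed sign, 1541 kept direction and side of the threshold, 16 newly passed and 29 no longer passed. The sign changes of Thbd were −0.13 (limma-voom), −0.45 (offset), −0.81 (slope covariate), −0.10 (surrogate variable), −0.0028 (without old Gly-Low 1, with up to 0.32 without old control 4) and −0.032 (without acute controls 2, 3 and 5). With the offset they were Gm14569 −0.51, Fgfbp1 0.31, Igfbp6 0.094, Slc40a1 −0.28, Cartpt 0.31, Hcrt 1.04 and Hagh 0.018. With the slope covariate they were Fgfbp1 0.58, St6galnac2 0.44, Cartpt 1.02, Pmch 0.20, Hcrt 1.54, Glo1 0.014 and Hagh 0.37. With the replicate block they were St6galnac2 0.040 and Gfap 0.29. St6galnac2 was at 0.015 with no filter. Without single libraries St6galnac2 ran from −0.46 to 0.21, Npy from −0.22 to 0.58 and Gfap from −0.51 to 0.21. Npy was −0.038 without acute controls 2, 3 and 5. None of these sign changes passed the test. The depth of 17955746 to 27399753 counts leaves low genes such as Slc38a5 imprecise, and with 3 old Gly-Low libraries the absence of calls in the old arm does not show that the diet had no effect there.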
